A study of Drosophila melanogaster with 30 samples.

Results

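The comparison described here sets stage 16 fruit fly embryos in which the transcription factors Collier and Ladybird early were switched on together throughout the nervous system against stage 16 control embryos. It covers every gene with a level of at least 1 TPM in either genotype. TPM scales transcript abundance by transcript length and to a fixed sum per library. These genes are 9822 of the 14040 genes listed at that stage. Both genotypes were collected as 3 biological replicates of more than 200 whole embryos each, so 6 of the study's 30 samples stand behind it. The study measured RNA in 5 genotypes at stage 16 and again at a late stage named AFT, for air-filled trachea. Its title speaks of a branching regulatory network in neurons.

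The embryos called col+lbe carried elav-Gal4 (Bl#458) over a chromosome with both UAS-col-HA and UAS-myc-lbe, and the control carried elav-Gal4 (Bl#458) over OregonR (BDSC# 2376). For side by side levels, 3 more genotypes were used. These carried the same driver over UAS-col-HA alone, called col, over UAS-myc-lbe alone, called lbe, or over UAS-eya-HPC4 together with UAS-Flag-Ap/+, called ap+eya. All 5 genotypes carry the elav-Gal4 driver, which is pan-neuronal and active mostly in postmitotic neurons, per the study's design text. The col and lbe transgenes are both on chromosome III. The control embryos carry an OregonR chromosome in the place of the transgenes and no UAS transgene. RNA came from whole embryos, so the driven cells are only some of the cells measured. Fewer cells of a type and less RNA per cell cannot be told apart in such samples.

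The files give 1 mean TPM per gene and genotype. No difference below could therefore be set against the spread between replicates, and none has a test, a p-value or an SD. "Higher" and "lower" compare these means. Differences are of log2(TPM + 1), col+lbe minus control, and a gene is counted from a difference of 2-fold, that is 1 on this scale. The added 1 makes the difference smaller for genes of low TPM. Such a gene can therefore differ by more than 2-fold in plain TPM without being counted.

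Collier, listed under its other name knot (kn), is a transcription factor of the EBF family, and Ladybird early (lbe) is a homeodomain protein. Both help to specify cell identities in the nervous system and in muscles. In the ventral nerve cord a small set of neurons is marked by the LIM-homeodomain protein Apterous (ap) and its partner Eyes absent (eya). Within that set, collier acts upstream of ap, eya and the basic helix-loop-helix factor dimmed (dimm) in the neurons that make the neuropeptide Nplp1.

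Joint misexpression was accompanied by higher levels of the ap, eya and Nplp1 genes, of the homeobox genes Six4 and slou and of the neuropeptide gene CCHa2. It was also accompanied by lower levels of many cuticle protein genes, of the GABA genes Gad1 and Gat, and of a set of neuronal transcription factor genes. Of all genes compared, 42 (0.428%) were at least 2-fold higher in col+lbe than in the control and 195 (1.99%) at least 2-fold lower. These shares stand beside every count of higher or lower genes given for a list below. Of the higher genes 30 lay between 2-fold and 4-fold, and of the lower ones 134. The median difference was 1.53 among the higher genes and -1.61 among the lower ones, against -0.05 over all genes. The middle part of the distribution was narrow, with the 5th percentile of all genes at -0.58 and the 95th at 0.28. For scale, col and lbe set against each other at the same stage gave 43 of 9746 genes (0.441%) at least 2-fold apart in either direction. In that comparison the 5th percentile was -0.21 and the 95th 0.22. Both col and lbe carry a transgene chromosome where the control carries OregonR, so this scale leaves out that difference in background. Just inside the 2-fold threshold, with differences up to 1.1, were 3 higher and 28 lower genes. Just outside it, from 0.9, were 5 and 48.

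**Figure D1:**
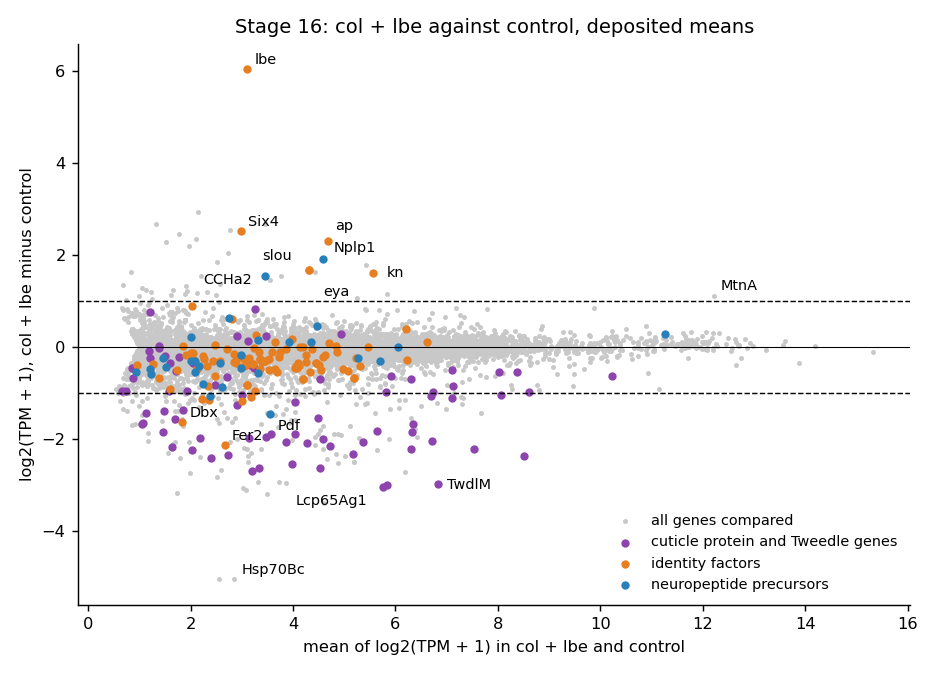
Each point is 1 of the 9822 genes, with the mean of its log2(TPM + 1) levels in col+lbe and control on the x axis and the log2 difference, col+lbe minus control, on the y axis; dashed lines mark 2-fold. Cuticle protein and Tweedle genes (purple) spread below 0, to -3.03 for Lcp65Ag1, while Six4, ap, Nplp1, slou, kn, eya and CCHa2 lie between 1.54 and 2.52 above it.

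The driven genes were examined first, as a check of the labels. The kn gene (FBgn0001319) stood at 81.0 TPM in col+lbe, 92.4 in col, 18.2 in lbe, 26.0 in ap+eya and 25.9 in the control, a difference of 1.61 in col+lbe. Thus both genotypes with the col transgene lie above the other 3. The lbe gene (FBgn0011278) stood at 68.2 TPM in col+lbe, 0.0538 in col, 61.2 in lbe, 0.0749 in ap+eya and 0.0633 in the control. It was all but absent wherever its transgene was not driven, and its difference of 6.02 was the largest of all genes compared. These levels can hold transgene reads, which the files do not separate from reads of the chromosomal copy. Between col+lbe and the single misexpression the log2 level differed by -0.19 for kn and 0.16 for lbe. The eye pigment gene white (w), often carried as a marker on transgenes and mutated in many stock backgrounds, was at 10.6 TPM in col+lbe, 11.4 in col, 12.6 in lbe and 9.71 in ap+eya, against 20.3 in the control. Levels of w thus set the control apart from the other 4 genotypes, whichever factor was driven.

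The determinants of Apterous neurons come next. The ap gene, which col+lbe embryos carry no transgene for, stood at 55.9 TPM in col+lbe, against 10.5 TPM in the control. It was at 15.2 TPM in col, 11.8 in lbe and, with its own transgene, 92.8 in ap+eya. Its difference was 2.30, and the single misexpressions lay close to the control. The partner gene eya stood at 36.6 TPM in col+lbe, 13.3 in col, 12.4 in lbe and 88.8 in ap+eya, against 11.2 TPM in the control, a difference of 1.63. Both genes were therefore well above both single misexpressions and below the level reached where they were driven directly.

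How far the joint level departs from the sum of the single differences is given by a non-additive value, which is the log2 difference of col+lbe from the control after the separate differences of col and of lbe have both been subtracted. It was 1.66 for ap and 1.25 for eya. For the driven genes it was 0.30 for kn and 0.17 for lbe. Most of the difference of ap and eya in col+lbe was thus not found in either single misexpression.

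The neuropeptide precursor gene Nplp1 stood at 45.2 TPM in col+lbe, 15.4 in col, 10.6 in lbe and 11.5 in ap+eya, against 11.4 TPM in the control. Its difference was 1.90 and its non-additive value 1.58. Although ap and eya were highest in ap+eya, Nplp1 there was at the control level. The dimm gene, a regulator of the neuropeptide-secreting state, was at 4.56 TPM in col+lbe, 1.51 in col, 1.62 in lbe and 1.75 in ap+eya, against 1.99 TPM in the control. It too was highest in col+lbe, with a difference of 0.89 that stays short of 2-fold and a non-additive value of 1.34.

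Of the 14 compared genes on the list of Apterous neuron determinants and effectors, ap, eya and Nplp1 were counted as higher and none as lower, and the list median was 0.00. Among the rest, the Hox cofactor homothorax (hth) was at 193 TPM in col+lbe and 107 in the control, a difference of 0.84. The temporal factor castor (cas), which acts in the lineage before these neurons are born, was at 11.1 TPM in col+lbe and 18.7 in the control, a difference of -0.70. Its level was also low in ap+eya, at 12.2 TPM, against 18.5 in col and 19.2 in lbe. The subtemporal factors sqz (-0.04) and nab (-0.02) and the gene grh (0.02) were within 0.1 of 0. The FMRFa gene, which encodes the neuropeptide of another Apterous neuron, was under 1 TPM in both genotypes and was not compared. The list of BMP pathway genes, the signal that FMRFa depends on, held 15 compared genes. Among them were babo, Smox and Actbeta of the related Activin branch. Differences ran from -0.17, that of babo, to 0.10.

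The homeobox gene Six4, a sine oculis family gene needed in mesoderm and muscle, stood at 17.9 TPM in col+lbe, 3.80 in col, 3.19 in lbe and 4.19 in ap+eya, against 2.30 TPM in the control. Its difference of 2.52 was larger than that of ap, and its non-additive value was 1.63. Six4 (FBgn0027364) lies on 3L from 20788886 to 20792777 on the minus strand, in the Ensembl annotation of BDGP6 used for all positions here. The homeobox gene slouch (slou), a muscle founder and neuronal identity factor, stood at 34.6 TPM in col+lbe, 13.5 in col, 9.97 in lbe and 9.75 in ap+eya, against 10.2 TPM in the control. Its difference was 1.66 and its non-additive value 1.33. Both genes were thus 2-fold or more above each of the other 4 means.

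The slou gene (FBgn0002941, 3R from 21548661 to 21557182, minus strand) belongs to the same NK homeobox gene cluster as lbe itself (3R from 21441577 to 21446537). The other 4 genes of the cluster were not higher. The muscle and heart factor tinman (tin) differed by -0.12, bagpipe (bap) by -0.26, the lbe paralogue ladybird late (lbl) by -0.37 and C15 by -0.50. In TPM, lbl was at 7.14 in col+lbe and 9.53 in the control, and C15 at 8.74 and 12.8. Among muscle identity factors 5 of 26 were higher and none lower, and 2 of these 5 were the driven genes. The list median was -0.23, against -0.05 over all genes, and 20 of its members lay below 0, as most of all genes did. Six4, ap and slou thus stood apart from the rest of that list. Among retinal determination genes Six4 and eya were higher, while so (-0.24), Optix (-0.41), toy (-0.71) and dac (-0.05) were within 2-fold, and eyeless (ey) was lower at 1.97 TPM in col+lbe, against 4.94 TPM in the control, at the edge of the 2-fold threshold.

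**Figure D2:**
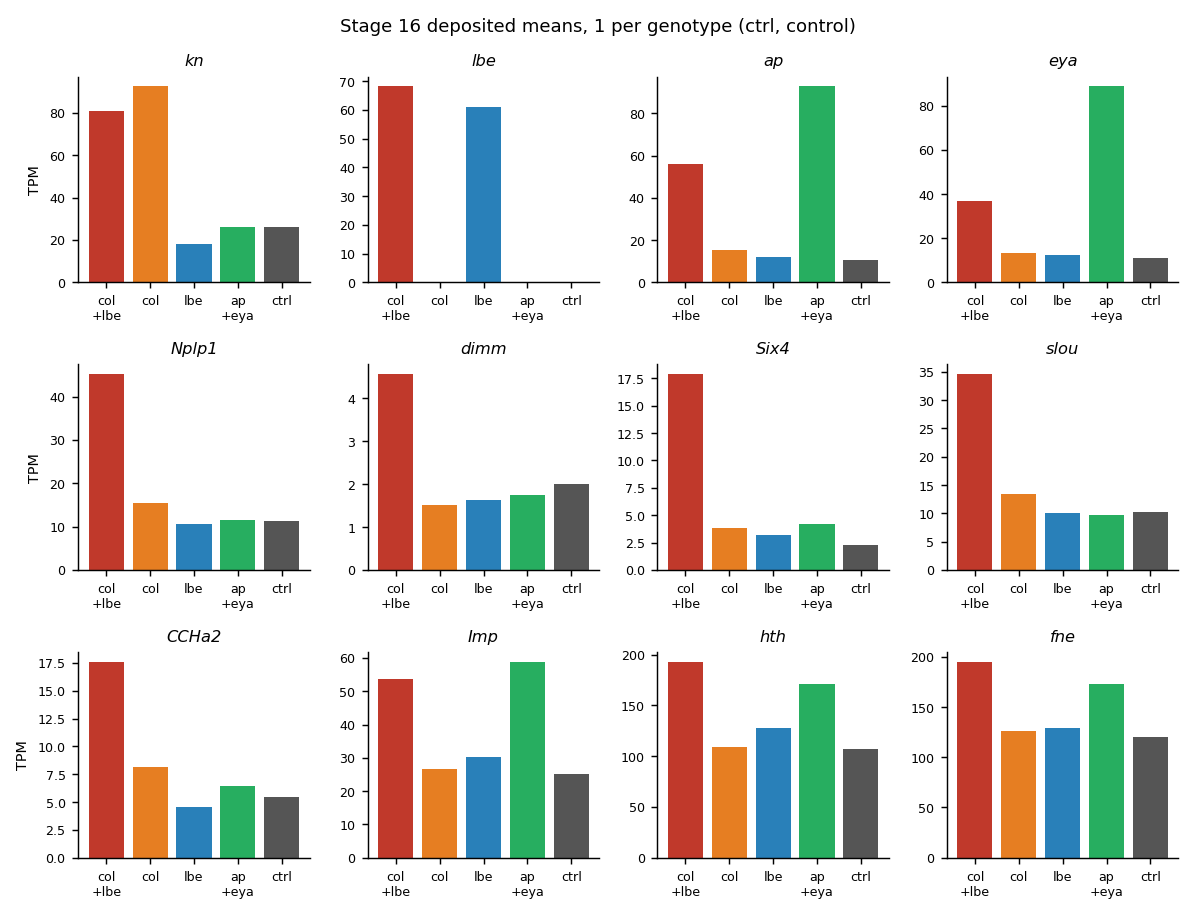
Bars give the deposited mean TPM of 12 genes in col+lbe, col, lbe, ap+eya and control embryos at stage 16, with no error bars because 1 mean per genotype was deposited. Nplp1, dimm, Six4, slou and CCHa2 are high in col+lbe alone, while ap, eya, Imp, hth and fne are also high in ap+eya.

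Neuropeptide precursor genes differed in both directions. Of 29 compared, 2 were higher and 2 lower, around a median of -0.30 with 20 members below 0. Most of all genes compared lay below 0 as well, with a median of -0.05. Besides Nplp1, the higher one was CCHa2 (FBgn0038147, 3R from 13389059 to 13395197, minus strand), which encodes a brain-gut peptide that acts on insulin-producing cells. It stood at 17.6 TPM in col+lbe, 8.12 in col, 4.60 in lbe and 6.45 in ap+eya, against 5.41 TPM in the control. Its difference was 1.54 and its non-additive value 1.22. Its relative CCHa1 was not higher, at 2.89 TPM in col+lbe and 4.15 TPM in the control.

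The lower ones were Pdf and AstC. The circadian neuropeptide gene Pdf was at 6.08 TPM in col+lbe, 8.53 in col, 16.0 in lbe and 7.83 in ap+eya, against 18.4 TPM in the control, a difference of -1.46. Its level was low in every genotype but lbe and the control, and against the median of the other 4 means the difference was -0.91, short of 2-fold. The gene for allatostatin C (AstC) was at 2.59 TPM in col+lbe, between 5.02 and 5.38 in col, lbe and ap+eya, and at 6.46 TPM in the control, a difference of -1.06. The Nplp2 gene, the most abundant on this list, was at 2699 TPM in col+lbe and 2227 TPM in the control, a difference of 0.28.

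Genes for peptide processing and dense core vesicles held 18 compared members, none of them 2-fold apart. Of these 13 lay above 0, whereas most of all genes compared lay below 0, and the median was 0.08, against -0.05 over all genes. The largest differences besides that of dimm were those of the vesicle synaptotagmin Sytalpha, at 3.78 TPM in col+lbe and 1.72 TPM in the control (0.81), and the furin convertase Fur1, at 25.7 and 16.6 TPM (0.60). The prohormone convertase gene amon differed by 0.29. Neuropeptide receptor genes held 29 compared members with none 2-fold apart on the log2(TPM + 1) scale and a median of -0.03. The largest difference was that of TrissinR, at 1.35 TPM in col+lbe and 0.397 TPM in the control (0.75). Its plain TPM ratio was 3.39.

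Among transmitter genes the GABA genes stood out. Of 8 compared, 2 were lower and none higher, beside 1.99% and 0.428% of all genes compared. Glutamic acid decarboxylase, which makes GABA, is encoded by Gad1 (FBgn0004516, 3L from 4074077 to 4088744, minus strand). It stood at 3.25 TPM in col+lbe, 6.70 in col, 5.77 in lbe and 8.20 in ap+eya, against 11.4 TPM in the control. Its difference was -1.55, its non-additive value 0.02, and each single misexpression lay between col+lbe and the control. With the median of the other 4 stage 16 means in place of the control the difference was -0.99, short of 2-fold. The plasma membrane GABA transporter gene Gat (FBgn0039915, chromosome 4 from 629691 to 635350, plus strand) stood at 7.62 TPM in col+lbe, 21.2 in col, 12.4 in lbe and 27.1 in ap+eya, against 26.2 TPM in the control, a difference of -1.66. Gat is a glial gene as well as a GABA gene.

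The vesicular transporter gene VGAT was at 6.10 TPM in col+lbe and 10.6 TPM in the control (-0.71). The receptor genes Rdl (0.44), Lcch3 (0.17), GABA-B-R1 (0.01), GABA-B-R2 (-0.16) and GABA-B-R3 (-0.21) were within 2-fold, so the lower members were those of synthesis and uptake. None of 12 acetylcholine genes, 14 glutamate genes or 24 monoamine genes was 2-fold apart, and their medians were 0.04, -0.11 and -0.11. The acetylcholine synthesis gene ChAT and the vesicular transporter gene VAChT differed by -0.06 and 0.01. The glutamate transporter genes VGlut, at 6.99 TPM in col+lbe and 12.3 TPM in the control (-0.73), and Eaat1 (-0.89), a glial gene, were the lowest among glutamate genes. The dopamine and serotonin synthesis gene Ddc, at 0.784 and 2.15 TPM (-0.82), was lowest among monoamine genes.

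Transcription factors that mark neuron types were mostly within 2-fold. Of 73 homeobox and other neuronal identity factors compared, 6 (8.22%) were at least 2-fold lower and 1, slou, higher. Over all genes compared these shares were 1.99% and 0.428%. Of the 73, 61 lay below 0, beside 6113 of all 9822 genes compared, and the list median was -0.33 beside -0.05 over all genes. The same share over all genes stands beside the counts below 0 given for other lists. The bHLH gene Fer2, a factor of dopaminergic and clock neurons, was at 2.02 TPM in col+lbe, 4.17 in col, 3.57 in lbe and 10.0 in ap+eya, against 12.3 TPM in the control (-2.13). Both single misexpressions were thus low for Fer2.

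The interneuron factor gene Dbx was at 1.03 TPM in col+lbe, 3.42 in col, 1.75 in lbe and 4.50 in ap+eya, against 5.28 TPM in the control (-1.63). The homeobox gene Hmx was at 2.43 TPM in col+lbe, 6.03 in col, 2.71 in lbe and 6.54 in ap+eya, against 6.58 TPM in the control (-1.14). For Hmx the joint level was therefore that of lbe alone, and its non-additive value was 0.00. The bHLH gene tap, the fly neurogenin, was at 4.35 TPM in col+lbe, 12.3 in col, 6.20 in lbe and 14.1 in ap+eya, against 11.0 TPM in the control (-1.16), again nearest to lbe.

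Fer3 was at 2.17 TPM in col+lbe and 5.96 TPM in the control (-1.13). The motor neuron factor HGTX, also called Nkx6 and chosen after its values were seen, was at 5.18 TPM in col+lbe and 12.1 TPM in the control (-1.09). Also chosen after their values were seen were 3 lower transcription factor genes outside the list. They were the LIM-homeobox genes Lmx1a (-1.23) and CG4328 (-1.21) and the bHLH gene HLH3B (-1.10). Of the factors above 0, the forkhead gene fd59A (0.60) and the bHLH gene Oli (0.40) were within 2-fold. In TPM fd59A was at 7.68 in col+lbe, 4.81 in col and 15.9 in lbe, against 4.71 in the control, so its joint level lay below that of lbe alone.

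The E(spl) complex, a group of genes switched on by Notch signalling, gave 11 compared members, all below 0 with a median of -0.35 and none 2-fold apart. The largest difference was that of E(spl)m6-BFM, at 40.9 TPM in col+lbe, 44.0 in col, 53.7 in lbe and 52.4 in ap+eya, against 71.9 TPM in the control (-0.80). All 11 were below the control in col and in ap+eya as well, and all but E(spl)mgamma-HLH and E(spl)malpha-BFM in lbe. Relative to all genes the list median was -0.30, and -0.15 with the median of the other 4 stage 16 means as reference. The temporal and subtemporal factors held 14 members with none 2-fold apart, and a median of -0.10. The zinc finger gene chinmo, at 52.2 TPM in col+lbe, 36.3 in col, 38.2 in lbe and 66.2 in ap+eya, against 38.1 TPM in the control (0.44), was the largest of them above 0.

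Imp, which encodes an RNA-binding protein of young neural lineages and was chosen here after its values were seen, was among the 42 higher genes. It stood at 53.7 TPM in col+lbe, 26.5 in col, 30.2 in lbe and 58.8 in ap+eya, against 25.2 TPM in the control (1.06). The single misexpressions were near the control and both joint misexpressions above it. The hth gene was also higher in both joint misexpressions, at 193, 109, 127 and 171 TPM in col+lbe, col, lbe and ap+eya, against 107 TPM in the control. So were the ELAV family gene fne, at 195, 126, 129 and 173 TPM in col+lbe, col, lbe and ap+eya, against 120 TPM in the control (0.70), and the sodium channel gene para, at 2.14, 0.850, 0.821 and 1.98 TPM, against 0.943 TPM in the control (0.69). At AFT hth, fne and para did not keep this order, and col+lbe lay below both single misexpressions. In the same order of genotypes hth was there at 70.1, 106, 119 and 113 TPM, against 64.1 TPM in the control. The AFT levels of fne were 70.6, 83.8, 80.4 and 85.5 TPM, against 50.5 TPM, and those of para 12.0, 20.3, 20.2 and 20.7 TPM, against 9.90 TPM.

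Neurons as a class showed little difference. Of 33 pan-neuronal and synaptic genes compared none was 2-fold apart, and the median was -0.02. The elav gene was at 36.8 TPM in col+lbe and 30.9 TPM in the control (0.24), and the synaptic vesicle gene nSyb at 109 and 111 TPM (-0.04). The largest differences on this list were those of jeb (0.72) and fne (0.70), and the lowest was that of Rim (-0.31). The jeb gene was at 1.79 TPM in col+lbe and 1.69 in ap+eya, against 0.698 TPM in the control. None of 70 axon guidance and adhesion genes, 26 dpr and DIP genes, 15 beat and side genes or 30 ion channel genes was 2-fold apart, with medians of -0.05, -0.23, -0.19 and -0.11. The guidance receptor gene robo3, at 12.3 TPM in col+lbe and 20.6 TPM in the control (-0.71), and the adhesion gene kirre, at 9.64 and 6.27 TPM (0.55), were the extremes of the guidance list. Among clock genes Pdf alone was lower, and among larval eye genes the arrestin gene Arr1, at 0.242 TPM in col+lbe and 2.45 TPM in the control (-1.47). One sensory gene of 15, the gustatory receptor gene Gr28b, was higher at 2.34 TPM in col+lbe, 2.17 in col and 0.377 in lbe, against 0.419 TPM in the control (1.24). Its joint level was that of col alone.

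**Figure D3:**
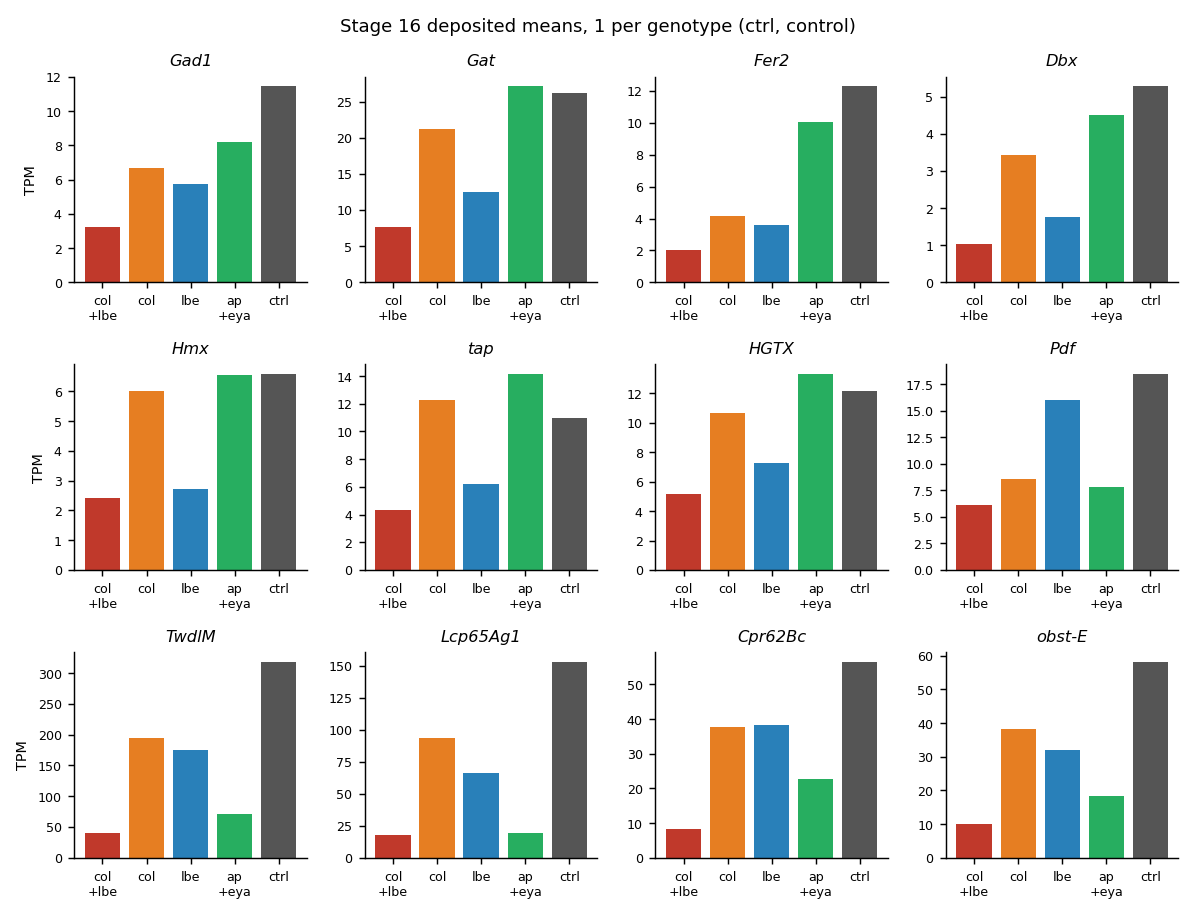
Bars give the deposited mean TPM of 12 lower genes in col+lbe, col, lbe, ap+eya and control embryos at stage 16, with no error bars because 1 mean per genotype was deposited. Hmx, tap, HGTX and Gat are also low in lbe, Pdf in col and ap+eya, and the cuticle genes TwdlM, Lcp65Ag1, Cpr62Bc and obst-E in ap+eya, with col and lbe in between.

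Genes of the cuticle, which the epidermis and not the nervous system makes, were the largest described group among the lower genes. Without the cuticle, Tweedle, Osiris and chitin lists, 151 of the 195 lower genes remained, many of them numbered genes on none of these lists. Of 60 cuticle protein genes with the Cpr, Lcp, Ccp, Edg, Acp or Pcp names, 32 were lower and none higher. Over all genes compared the shares were 1.99% and 0.428%. These cuticle protein genes had a list median of -1.04. Their summed level was 1591 TPM in col+lbe, 3253 in col, 3066 in lbe and 2122 in ap+eya, against 4029 TPM in the control. Of 19 Tweedle genes, another family of cuticle proteins, 11 were lower and none higher, and all 19 lay below 0 with a median of -1.67. The Tweedle genes summed to 1732 TPM in col+lbe, 3262 in col, 2974 in lbe and 2616 in ap+eya, against 3690 TPM in the control. In both families the order was therefore col+lbe lowest, ap+eya next, and then lbe, col and the control.

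In some single genes col+lbe lay well below ap+eya. TwdlM was at 39.8 TPM in col+lbe, 195 in col, 175 in lbe and 70.7 in ap+eya, against 318 TPM in the control (-2.97). Cpr62Bc was at 8.33 TPM in col+lbe, 37.7 in col, 38.2 in lbe and 22.8 in ap+eya, against 56.5 TPM in the control (-2.62). TwdlD was at 85.3 TPM in col+lbe, 295 in col, 272 in lbe and 172 in ap+eya, against 401 TPM in the control (-2.22). For Cpr62Bc and TwdlD the col+lbe mean was 2-fold or more below each of the other 4.

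In another subset col+lbe and ap+eya were about equally low. TwdlB was at 5.59 TPM in col+lbe and 6.10 in ap+eya, against 30.2 in col, 28.4 in lbe and 37.1 TPM in the control (-2.53). TwdlN was at 1.95 and 2.23 TPM in col+lbe and ap+eya, against 14.0 TPM in the control (-2.34), and TwdlL at 15.0 and 15.3 TPM, against 79.3 TPM in the control (-2.32). The 3 Lcp65Ag copies, which share reads and are given as a sum, came to 72.8 TPM in col+lbe, 299 in col, 239 in lbe and 91.3 in ap+eya, against 481 TPM in the control. The 2 Cpr65Ax copies summed to 3.91 TPM in col+lbe, 22.7 in col, 33.0 in lbe and 3.28 in ap+eya, against 33.5 TPM in the control. In all of these named genes ap+eya was below the control too. The subsets thus differ in whether col+lbe lay well below ap+eya or near it.

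Most other epidermal genes were within 2-fold. Of 19 Osiris genes, which act in cuticle and tracheal formation and were very abundant at this stage, none was 2-fold apart, and their median was -0.04. They summed to 20861 TPM in col+lbe, against 21969 TPM in the control, and Osi6 alone was at 9392 and 9876 TPM in these genotypes. Of 43 chitin and epidermal matrix genes 1 was lower and 1 higher. The chitin-binding gene obst-E was at 9.92 TPM in col+lbe, 38.1 in col, 32.0 in lbe and 18.2 in ap+eya, against 58.2 TPM in the control (-2.44). Its means kept the order of the cuticle families. The pigmentation gene yellow (y) was at 4.80 TPM in col+lbe, 5.07 in col, 1.77 in lbe and 1.85 in ap+eya, against 1.51 TPM in the control (1.21), so it was higher in both genotypes with the col transgene. The epidermal factor gene grh differed by 0.02.

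**Figure D4:**
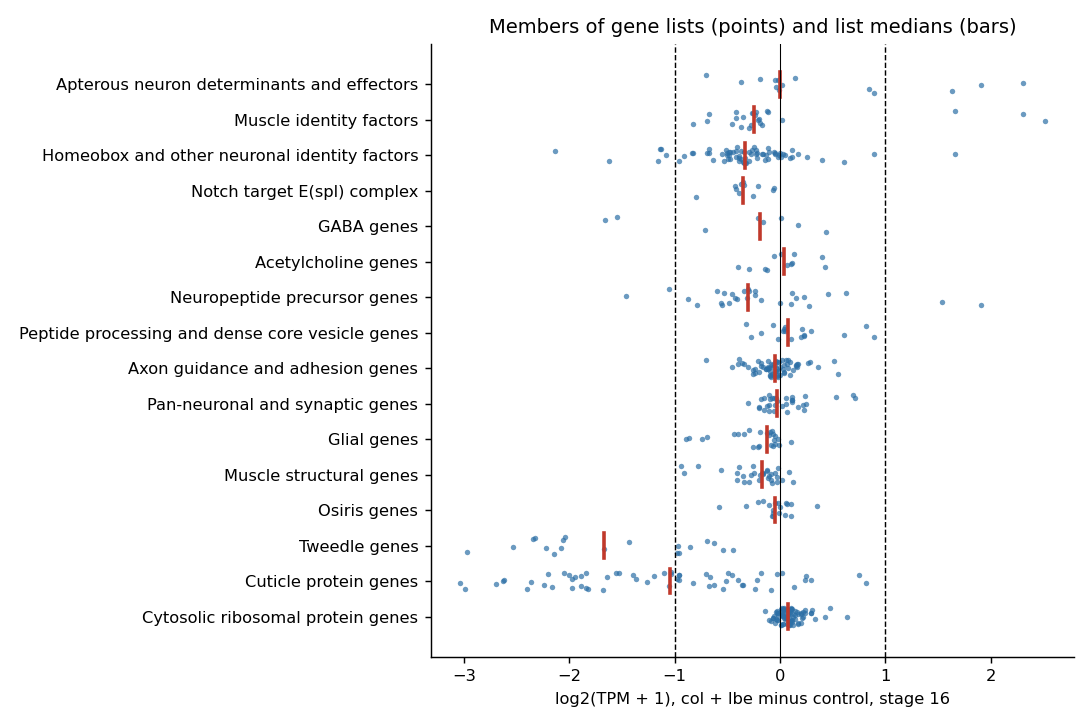
Points are the compared members of 16 gene lists, placed by their log2(TPM + 1) difference, col+lbe minus control, at stage 16, with the driven genes kn and lbe left out; red bars are medians and dashed lines mark 2-fold. The Tweedle and cuticle protein genes spread to -2.97 and -3.03, while Osiris, pan-neuronal, acetylcholine and ribosomal protein genes lie near 0.

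The differences were next set against the stage at which a gene comes on. For each gene, the change between stages was taken as AFT minus stage 16 on the log2 scale, as the median over col, lbe and ap+eya, so that neither the col+lbe nor the control mean entered it. The stages come from separate tables with different read layouts, so the change includes any effect of the layout. Of the 195 lower genes 108 (55.4%) had an AFT level at least 2-fold above that at stage 16, against 13.4% of all genes compared. A further 47 (24.1%) were at least 2-fold lower at AFT, against 28.6% of all genes. Among the 42 higher genes 10 (23.8%) were at least 2-fold higher at AFT and 13 (31.0%) at least 2-fold lower.

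By size of the stage change, the share of lower genes was 0.626% of the 3835 genes with a change between -1 and 0, 2.58% of 658 genes between 1 and 2, and 7.42% of 458 genes between 2 and 4. It was 27.8% of the 205 genes with a change of 4 or more, whose median difference was -0.42. It was also 4.05% of the 840 genes with a change under -2. Without the cuticle, Tweedle, Osiris and chitin lists the share in the top bin was 23.6% of 182 genes. The share of lower genes was thus largest among genes that come on late, with the cuticle lists and without them. Ages of the embryos within stage 16 are not given by genotype, so the part of collection time in this was not tested. The hormone-induced gene Eip74EF was the one of 23 genes on the ecdysone cascade list to be lower, at 1.59 TPM in col+lbe and 4.28 TPM in the control (-1.03). Within 2-fold were ftz-f1, at 37.3 and 68.5 TPM (-0.86), and, in the other direction, Eip75B, at 63.0 and 44.8 TPM (0.48). This list also holds the epithelial polarity gene sdt (-0.02).

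**Figure D5:**
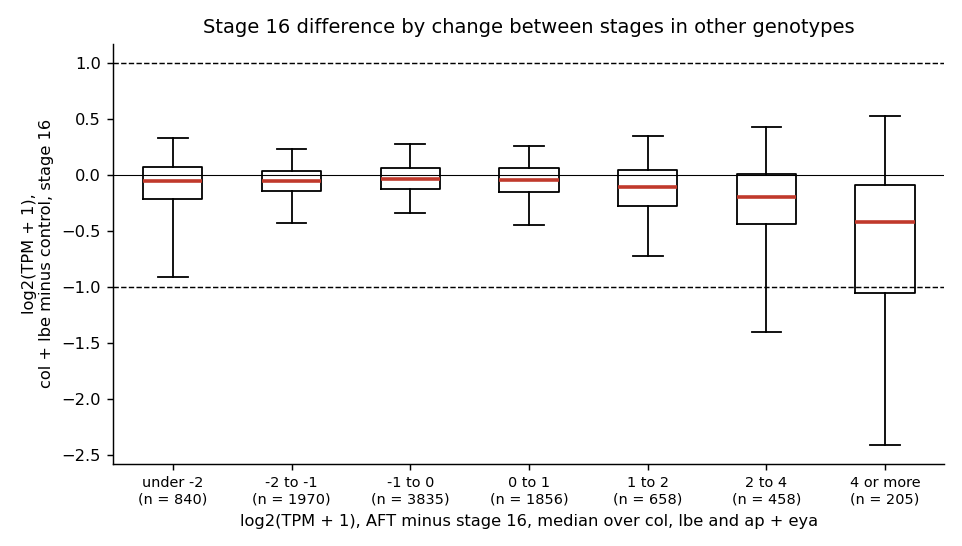
Boxes show the log2(TPM + 1) difference, col+lbe minus control, at stage 16 (median, quartiles and 5th to 95th percentile) for genes binned by their change between stages in the other 3 misexpressions, with the number of genes under each box. The medians lie between -0.03 and -0.05 in the first 4 bins and reach -0.42 in the bin of genes with a change of 4 or more.

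The lower genes lay close together in the genome. Of the 195, 109 (55.9%) had another lower gene within 50 kb, whereas 15.1% of all 9778 placed genes had a lower gene that near. On arm 3L 85 of 1917 compared genes (4.43%) were lower, against 0.902% to 1.77% on X, 2L, 2R and 3R, and without the cuticle lists it was 3.51% on 3L. The largest run was on 3L from 16264713 to 16369518, where 17 of 30 compared genes were lower and the median of all 30 was -1.58. It holds genes with numbered names such as CG13060 (2.74 TPM in col+lbe and 33.0 TPM in the control, -3.18) and CG13051 (4.21 and 39.2 TPM, -2.95).

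The Lcp65 and Cpr65 genes on 3L from 6130386 to 6150857 were lower in 9 of 9. The Tweedle cluster on 3R from 26619118 to 26693590 was lower in 8 of 10, and the Ccp84 cluster on 3R from 6686728 to 6704903 in 6 of 7. Another 6 of 6 numbered genes were lower on 3L from 22691674 to 22699870, among which CG12546 and CG14452 have identical values and are near-identical copies. For higher genes 4 of 42 (9.52%) had such a neighbour, against 4.51% of all genes. These 4 form 1 run on 2R from 18382704 to 18390242 with IM23, CG18107, CG15067 and CG15065, which belong to a cluster of small secreted immune-induced peptides. Of these, CG15067 was at 6.87 TPM in col+lbe, 2.59 in col, 1.90 in lbe and 2.04 in ap+eya, against 1.69 TPM in the control (1.55). The grouping of neighbours was examined after the differences were seen.

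Markers of other tissues were followed because the RNA came from whole embryos. Over all genes compared, most lay below 0, with a median of -0.05. Of 25 genes on the glial list none was 2-fold apart and 24 lay below 0, with a median of -0.12. That list does not hold Gat, also a glial gene, which was lower (-1.66). The glial factor gene repo was at 17.9 TPM in col+lbe and 20.5 TPM in the control. Of 32 muscle structural genes none was 2-fold apart and 29 lay below 0, with a median of -0.17. They summed to 23857 TPM in col+lbe and 27457 TPM in the control. The largest differences were those of Zasp66, at 16.6 and 32.8 TPM (-0.94), and Act87E, an actin, at 224 and 423 TPM (-0.91). Haemocyte (16 genes, median -0.10) and neuroblast and cell cycle genes (36 genes, median -0.07) held none 2-fold apart. Of 88 cytosolic ribosomal protein genes none was 2-fold apart and 73 lay above 0, with a median of 0.08, although relative to all genes it turned to -0.03 after quantile normalisation. The part of these small differences in tissue make-up in the results above was not tested.

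The remaining named genes had less in common. Among gut and fat body genes, the amylase gene Amy-p was at 8.67 TPM in col+lbe, 3.63 in col, 1.35 in lbe and 0.847 in ap+eya, against 0.903 TPM in the control (2.34). The lysozyme gene LysX was at 8.61, 8.91, 2.95 and 8.53 TPM in col+lbe, col, lbe and ap+eya, against 2.73 TPM in the control (1.37), and the protease gene Jon65Aiii was lower (-1.02). Among immune and humoral stress genes 3 of 34 were higher and none lower, beside 0.428% and 1.99% of all genes compared. IM14, an immune-induced peptide gene, was at 26.5 TPM in col+lbe, 15.9 in col, 5.11 in lbe and 2.53 in ap+eya, against 3.32 TPM in the control (2.67). Of the others, IM23 differed by 1.20 and the cytokine gene Gbp3 by 1.53. None of 14 Apterous cofactors and wing targets was 2-fold apart, the largest differences being those of vestigial (vg, -0.83) and the LIM-only gene Bx (-0.81). For Bx the joint level was near that of lbe alone, at 5.67 TPM in col+lbe and 5.92 in lbe. It was at 9.01 TPM in col and 13.1 in ap+eya, against 10.7 TPM in the control. None of 10 Hox genes and cofactors or 13 cell death genes was 2-fold apart either. Among the second, the death activator gene sickle (skl) was at 85.7 TPM in col+lbe and 48.6 TPM in the control (0.81). It was at 55.3 TPM in col, 97.0 in lbe and 66.0 in ap+eya, so its joint level lay below that of lbe alone. Of 17 heat shock genes outside the Hsp70 copies 1 was lower and none higher, around a median of 0.10.

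Numbered genes filled 18 places of the 42 and 117 of the 195. CG30356 was at 11.3 TPM in col+lbe, 2.75 in col, 4.21 in lbe and 0.679 in ap+eya, against 0.601 TPM in the control (2.94). Its non-additive value was 0.01. CG13056 was at 5.32 TPM in col+lbe, against 0.295 TPM in the control (2.29), although it lies inside the 3L run of lower genes. CG31219 was at 6.96 TPM in col+lbe and 7.06 in ap+eya, but at 0.205 in col and 2.18 in lbe, against 0.455 TPM in the control (2.45). CG3348 (1.77) and CG43248 (2.04) were higher too, and Mst57Dc, at 5.34 TPM in col+lbe, was listed at 0 in the control. The lower numbered genes were led by CG15213 (6.54 TPM in col+lbe and 78.0 TPM in the control, -3.39), CG13731 (-3.07), CG10953 (-2.92), CG13069 (-2.81) and CG13674 (-2.74).

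Some differences belong to the control mean. In 6 of the 42 higher genes the control was 2-fold or more below each of the other 4 means, and in 13 of the 195 lower genes it was 2-fold or more above each of them. MtnA, a metallothionein gene, was at 6981 TPM in col+lbe and between 6715 and 7847 TPM in col, lbe and ap+eya, against 3227 TPM in the control (1.11). The zinc transporter gene ZnT35C (1.15), CG30148 (2.53), CG34437 (2.19) and CG18107 (1.84) behaved likewise. Hsp70Bc, a heat shock gene, was at 0.255 TPM in col+lbe and under 2 TPM in col, lbe and ap+eya, against 40.3 TPM in the control (-5.04). It shares reads with its near-identical copies, and all 6 copies summed to 669 TPM in col+lbe, against 631 TPM in the control. CG18853 (-3.17), CG42822 (-2.93) and Hsc70-2 (-1.17) were also high in the control alone. By contrast, CG14095 (-3.10) and CG13060 (-3.18) were each both highest in the control and lowest in col+lbe. CG12896 was at 0.0227 TPM in col+lbe and between 19.6 and 101 TPM in the others (-5.03); with its Prx2540 copies the sum was 245 TPM in col+lbe, against 381 TPM in the control.

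The other genotypes at this stage put the differences in context. The col+lbe mean was the highest of the 5 in 28 of the 42 higher genes, and the lowest in 180 of the 195 lower ones, while over all genes compared it was the highest in 19.6% and the lowest in 25.7%. Since these genes were picked on the col+lbe and control means, the shares are a description. In 8 genes col+lbe was 2-fold or more above each of the other 4, namely CG30356, Six4, Amy-p, CG13056, Nplp1, slou, CG15067 and CCHa2. It was 2-fold or more below each of them in 13 genes, including Cpr62Bc, Cpr64Ab, TwdlD, Twdlbeta and CG13060.

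The same contrast at AFT uses other embryos and libraries, read in another layout. There 337 of 10119 genes (3.33%) were at least 2-fold higher in col+lbe and 407 (4.02%) lower. Of the 42 genes higher at stage 16, 29 could be compared at AFT, of which 16 (55.2%) were again at least 2-fold higher and none at least 2-fold lower. Without kn and lbe it was 14 of 27. Of the 195 lower genes 187 could be compared, of which 113 (60.4%) were again at least 2-fold lower and 2 were at least 2-fold higher. Their median difference at AFT was -1.25, against 0.11 over all genes there.

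Among single genes, Nplp1 was at 1340 TPM in col+lbe and 42.0 TPM in the control at AFT. Six4 was at 21.9 and 0.505 TPM, slou at 37.1 and 4.25 TPM, and CCHa2 at 41.5 and 16.5 TPM in these genotypes. Gad1 was at 24.4 TPM in col+lbe and 57.0 TPM in the control, Gat at 31.3 and 86.2 TPM, and Fer2 at 1.08 and 4.61 TPM. These 7 kept their direction at the later stage. AstC did not, at 55.1 TPM in col+lbe and 30.3 TPM in the control at AFT, nor did Jon65Aiii, at 671 and 172 TPM. MtnA and the other metallothionein genes were listed at 0 in every AFT mean.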

How the data were processed

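Per the labels' protocols, RNA of whole embryos was sequenced as 50 bp single reads at stage 16 and 150 bp paired reads at AFT, and samples yielded 30 to 50 M reads. The submitters' processing notes name kallisto 0.43.1 and the genome build BDGP6. The authors deposited 1 TPM value per gene, genotype and stage. These are means of 3 libraries: 3 times the value was whole to within 0.02 of the 4th decimal for 55.7% of values from 10 to 100 TPM, and for at most 27.9% with factors of 1, 2, 4 and 5. TPM keeps no depth, so no interval could be given.

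Differences of log2(TPM + 1) were computed with Python 3.11.15, pandas 2.3.3 and numpy 2.4.6 and tested on simulated data. The genes picked by rule are the 5 marker genes and w, in each direction the 15 largest differences among genes with 5 TPM or more in either mean, and for each of 41 gene lists up to 6 members at least 2-fold apart, or otherwise up to 2 of largest difference. Not every gene picked by this rule is given in the text. Other genes are given as members of a described list or as chosen after their values were seen. The comparison, its members and the lists were chosen with earlier results of these data known. Eip74EF was taken out of the peptide processing list, where it had been put by mistake. Of 14040 symbols, 13981 were matched to the Ensembl annotation of BDGP6, synonyms included. In 5 gene names that had become dates the symbol was restored.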

Additional observations from a re-analysis of the deposited data

How the results depend on the processing

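Leaving out a library and any replicate block could not be run, since 1 mean per genotype was used. No paired analysis was possible because the values are means. The 42 higher and 195 lower genes became 113 and 318 with a pseudocount of 0.1, 22 and 111 with a pseudocount of 5, 116 and 342 as plain TPM ratios without values of 0, and 19 and 99 at 3-fold. Under the other settings run, from no filter, a 5 TPM filter and both rescalings to leaving out the cuticle lists, the counts stayed within 1.5 times, at 28 to 46 higher and 134 to 195 lower. With the median of the other 4 stage 16 means in place of the control they were 28 and 134. Of 65 named genes at least 2-fold apart, 47 stayed so with this reference. The other 18 were CG30148, CG34437, CG18107, Hsp70Bc, CG18853, CG42822, Fer3, ey, Gad1, Pdf, AstC, Arr1, LysX, Jon65Aiii, Hsc70-2, Gbp3, ZnT35C and MtnA, of which 2 changed direction, CG30148 to -0.45 and MtnA to -0.036. After the data were seen, genes whose control mean stands apart were left out, which gave 36 and 182. Cuticle protein genes counted as lower numbered 22 to 37 and Tweedle genes 10 to 13 over the settings run for them. Rescaling by the median ratio moved the median of all genes by 0.04 and quantile normalisation by 0.08. Of the 65 named genes, 63 stayed 2-fold apart after the first and 61 after the second, where ey, AstC, Jon65Aiii and Eip74EF dropped under 2-fold. With a pseudocount of 5, 49 did, and 16 of low TPM, Gad1, Dbx, tap and Hmx among them, dropped under it.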
